A study of Homo sapiens with 2 samples.

Results

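Genes of the lysosomal stage of antigen processing were examined in GM12878, a human lymphoblastoid line made from B cells with Epstein-Barr virus. The set comprised 10 genes: the 7 proteases CTSS, CTSH, CTSC, CTSZ, CTSB, CTSD and LGMN, the thiol reductase IFI30, and the lysosomal membrane proteins LAMP1 and LAPTM5. All rows of the deposited transcript table that carry these names were taken, which gave 398 of its 237608 transcript models and 10 of its 16645 annotated genes with a read. The 2 libraries, replicate 1 and replicate 2, were made from GM12878 RNA, with no treatment given in the labels, using the Oxford Nanopore direct RNA kit SQK-RNA002 on the flow cell FLO-MIN106D. They form 1 group, so the data hold no comparison between cell types or conditions, and each test below compares the reads of 1 library with those of the other. The labels do not say whether the replicates came from separate cultures, and the spread between them may be technical.

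A B cell takes up protein antigens through its antigen receptor and delivers them to late endosomes and lysosomes. There the proton pump acidifies the lumen, proteases cut the antigen and the invariant chain (CD74), and the peptides are loaded onto HLA class II molecules with the help of HLA-DM. Most cathepsins are cysteine proteases of the papain family, CTSD is an aspartic protease, and LGMN is a cysteine protease that cuts after asparagine. IFI30, also called GILT, reduces disulphide bonds so that folded antigens can be cut.

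In direct RNA sequencing, native RNA strands are read from the 3′ end towards the 5′ end, so a strand that is broken or left early yields a read that lacks the 5′ exons. Each model in the table has a category. Known models are annotated transcripts. Incomplete splice matches (ISM) carry only some consecutive junctions of such a transcript, and are of the suffix kind where these are the last ones at the 3′ end. NIC models join annotated splice sites in an unannotated way, NNC models have an unannotated splice site, and genomic models overlap a gene without matching its splicing.

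Replicate 1 held 1360368 reads and replicate 2 held 1510998, and a single read stood for 0.735 and 0.662 CPM (counts scaled to the same total in both libraries). A count of 0 allowed up to 2.21 and 1.99 CPM (3 reads). All 7 B cell markers had reads, with summed levels of 1494 and 1533 CPM, whereas the 7 monocyte and macrophage markers summed to 2.94 and 6.62 CPM and LYZ, CD163, S100A8 and S100A9 had no read. Of the T and NK cell markers 2 of 5 had reads (NKG7 at 25.1 CPM and CD3E at 7.13 CPM), of the dendritic cell markers 1 of 3 (CD1C at 14.2 CPM), and of the red cell, liver and fibroblast markers 1 of 4 (COL1A1). In bulk RNA, few cells of another type and little RNA per cell cannot be told apart.

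The 10 genes together took 4277 reads of replicate 1 (0.314%) and 3905 of replicate 2 (0.258%). The 7 proteases summed to 1225 and 1038 CPM, with CTSH and CTSC as the highest of them. Levels are given as CPM without division by length, since 1 direct RNA read stands for 1 strand. The order per kilobase is given beside it. The median level of the 10 genes was 120 CPM, against 22.1 CPM over the 10634 genes with at least 10 reads.

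CTSH, an aminopeptidase that also acts as an endopeptidase (ENSG00000103811.16, chromosome 15, 78921058 to 78949574, minus strand, GRCh38), had 720 reads in replicate 1 and 660 in replicate 2. Its levels of 529 and 437 CPM gave a mean of 483 ± 65.4 CPM (SD, n = 2), at rank 253 of the 16645 genes. CTSC, the dipeptidyl peptidase that activates granule serine proteases (ENSG00000109861.15, chromosome 11, 88293592 to 88337787, minus strand), had 570 and 510 reads, or 378 ± 57.6 CPM at rank 323. The levels of CTSH in both libraries lay above both levels of CTSC. With known models only, CTSC had the higher mean, at 231 CPM against 208 CPM for CTSH.

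CTSZ, a carboxypeptidase (ENSG00000101160.13, chromosome 20, 58995185 to 59007247, minus strand), had 168 and 196 reads, or 127 ± 4.4 CPM. The aspartic protease CTSD (ENSG00000117984.13, chromosome 11, 1752752 to 1764573, minus strand) had 93 and 80 reads, or 60.7 ± 10.9 CPM. CTSS, the protease known for the last cut of the invariant chain in B cells (ENSG00000163131.10, chromosome 1, 150730196 to 150765957, minus strand), had 50 and 63 reads, or 39.2 ± 3.49 CPM. CTSS thus had a lower level in both libraries than CTSH, CTSC, CTSZ and CTSD.

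CTSB, an endopeptidase that also removes dipeptides from the carboxyl end (ENSG00000164733.20, chromosome 8, 11842524 to 11869448, minus strand), had 46 and 51 reads and a level of 33.8 CPM in each library. LGMN (ENSG00000100600.14, chromosome 14, 92703807 to 92748702, minus strand) was the lowest of the 10, with 20 reads in replicate 1 and 9 in replicate 2, or 10.3 ± 6.18 CPM at rank 7696. All 10 genes had reads in both libraries.

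IFI30 (ENSG00000216490.3, chromosome 19, 18173162 to 18178117, plus strand) had 537 reads in replicate 1 and 393 in replicate 2. Its levels of 395 and 260 CPM gave 327 ± 95.2 CPM, and the range enclosed the CTSC level of 338 CPM in replicate 2. The lysosomal glycoprotein LAMP1 (ENSG00000185896.10, chromosome 13, 113297241 to 113323672, plus strand) had 137 and 188 reads, or 113 ± 16.8 CPM. LAPTM5, a membrane protein of blood cells that lowers the surface level of the B cell receptor (ENSG00000162511.7, chromosome 1, 30732469 to 30757820, minus strand), had 1936 and 1755 reads, or 1292 ± 185 CPM, the highest of the set at rank 133.

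Of the 9 pairs of neighbours in this order, 2 had overlapping ranges, CTSC with IFI30 and CTSZ with LAMP1, and these pairs did not differ beyond their spread. Ranges of the other 7 pairs did not overlap, with a ratio of means from 1.16 (CTSS over CTSB) to 3.27 (CTSB over LGMN). No test was made of these pairs. CTSS over CTSB rested on 50 against 46 reads in replicate 1 and 63 against 51 in replicate 2, and their ranges overlapped without genomic models. On the scale per kilobase of the known models read, LAPTM5 stayed first with 586 CPM per kilobase and LGMN last with 5.07, while IFI30 moved from the fourth to the second place with 289 and CTSC from the third to the fifth with 82.2. This scale uses listed lengths. The most read known model of CTSC, CTSC-203, is listed at 6125 bases, which need not be the length of its reads.

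**Figure D1:**
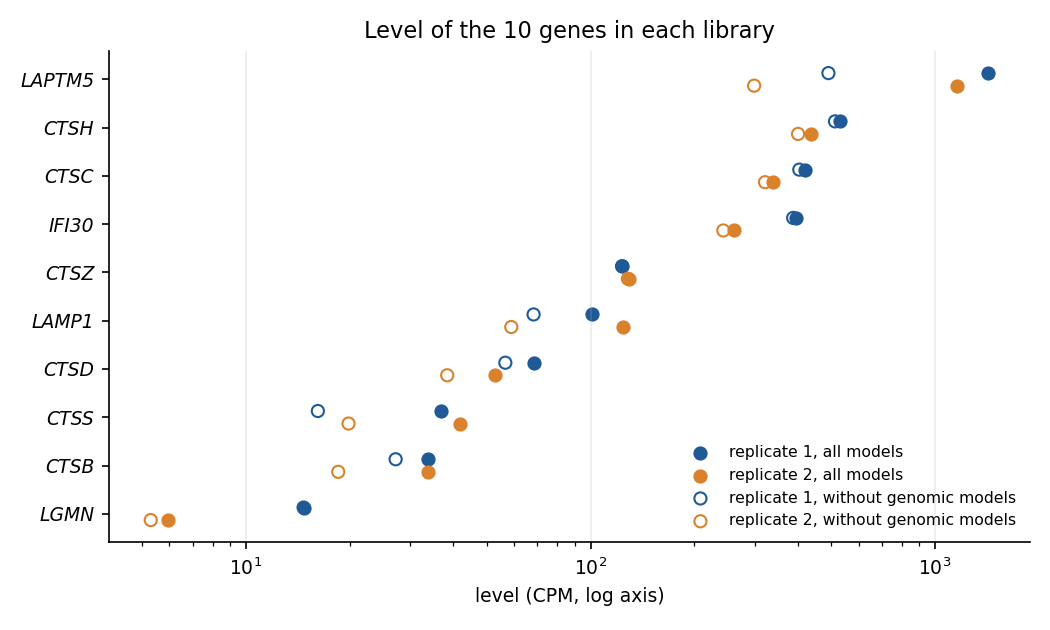
Level in CPM (log axis) of the 10 genes in replicate 1 (blue) and replicate 2 (orange), with filled points for all models and open points without genomic models. LAPTM5 falls from a mean of 1292 to 394 CPM when genomic models are left out, below the CTSH mean of 456 CPM but with overlapping ranges. The CTSS mean falls from 39.2 to 18.0 CPM.

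The position of LAPTM5 at the top rested on 1 genomic model. This model has a single exon, is listed at 13 bases, and took 1248 reads in replicate 1 and 1267 in replicate 2, or 64.5% and 72.2% of the reads of the gene. A listed length of 13 bases cannot be the length of the reads counted under it, and the table gives no position for it. It was the tenth most read of the 22342 genomic models of annotated genes, and of the other genomic models listed at 13 bases or fewer the most read had 1099 reads. Without genomic models LAPTM5 had 667 and 451 reads, or 394 ± 136 CPM. CTSH then had the highest mean of the 10 genes, 456 ± 79.2 CPM. The ranges overlapped, with 490 and 298 CPM for LAPTM5 and 512 and 400 CPM for CTSH. With known models only, IFI30 had the highest mean at 312 CPM, before LAPTM5 at 256, CTSC at 231 and CTSH at 208. The annotated transcript LAPTM5-201, with 8 exons and 2223 bases, had 464 reads in replicate 1 and 250 in replicate 2.

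Genomic models also took a large part of CTSS, LAMP1 and CTSB. CTSS had 28 of its 50 reads in replicate 1 and 33 of 63 in replicate 2 in such models, 56.0% (Wilson 95% interval 42.3 to 68.8%) and 52.4% (40.3 to 64.2%). This left CTSS-201, its 8-exon coding transcript, with 12 reads in each library. In LAMP1 a single-exon model of 3203 bases, longer than the 2699 bases of LAMP1-201, took 44 and 99 reads. CTSB had 9 and 23 reads in genomic models. Without such models its mean was 22.9 CPM against 18.0 CPM for CTSS. The levels were 27.2 and 18.5 CPM for CTSB and 16.2 and 19.9 CPM for CTSS. These ranges overlapped, and CTSS was the higher one in replicate 2. CTSZ had 0 and 2 genomic reads, LGMN 0 and 1, and IFI30 10 and 26.

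Between the libraries, 4 of the 10 genes differed by a two-sided exact binomial test on the reads with Benjamini-Hochberg adjustment over all 10634 genes tested, and all 4 were lower in replicate 2. Over all genes tested, 5.05% were called in either direction, 2.33% as lower and 2.72% as higher in replicate 2. That background covers genes down to 10 reads. With a minimum of 50 reads, which 9 of the 10 genes met, the same 4 were called, against 9.62% of all genes. The log2 ratio of replicate 2 over replicate 1, with 0.5 reads added, was -0.60 for IFI30 (exact binomial test, adjusted p = 3.76e-08) and -0.29 for LAPTM5 (adjusted p = 9.03e-08). It was -0.31 for CTSC (adjusted p = 0.0124) and -0.28 for CTSH (adjusted p = 0.0115). These are also the 4 genes of the set with the most reads. The ratio of LAPTM5 was -0.65 without its 13-base genomic model, -0.72 without genomic models and -1.03 with known models only, each past the exact binomial test. With known models only, CTSH had -0.97 and CTSC -0.81, while the median over all genes tested in that way was -0.55.

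The remaining 6 genes did not pass the exact binomial test. CTSZ had a log2 ratio of 0.07 (adjusted p = 0.944), CTSS of 0.18 (adjusted p = 0.876) and LAMP1 of 0.30 (adjusted p = 0.371). CTSD had -0.37 (adjusted p = 0.435) and CTSB an adjusted p of 1. LGMN had the ratio farthest from 0, -1.26 (adjusted p = 0.213), on 29 reads in all. The median ratio was -0.29 for the 10 genes and 0.01 for all genes tested.

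**Figure D2:**
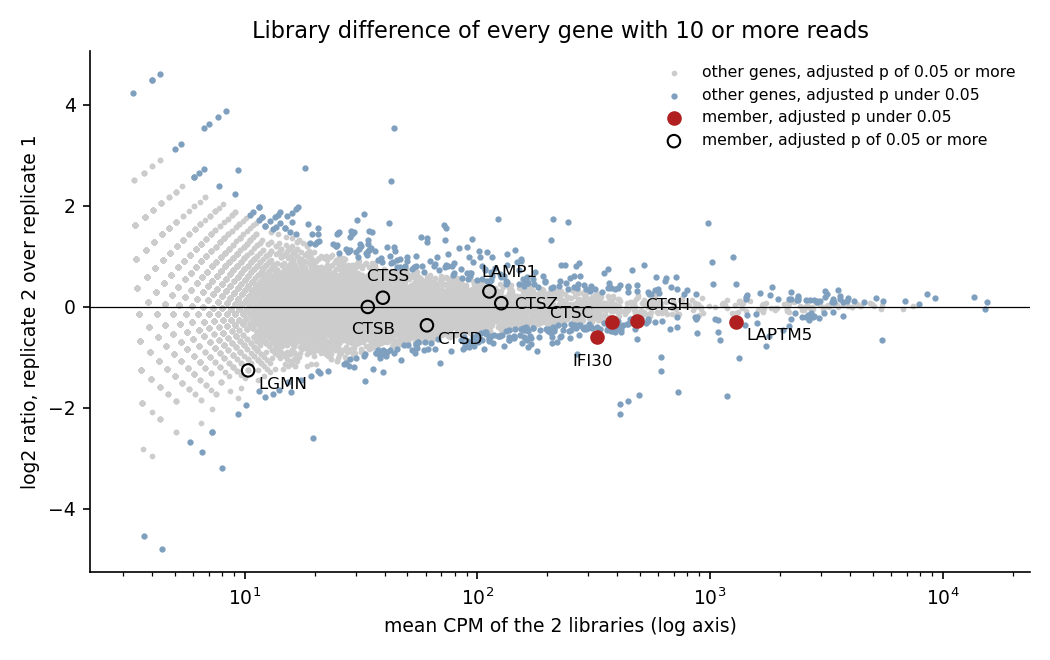
Log2 ratio of replicate 2 over replicate 1 against the mean CPM of both libraries (log axis) for every gene with at least 10 reads, with the 10 lysosomal genes labelled. The 4 filled red points, IFI30, LAPTM5, CTSC and CTSH, lie below 0 at ratios from -0.60 to -0.28, and LGMN lies lowest at -1.26 without passing the test.

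IFI30 shares its locus with a second annotated gene, and the call depended on how reads were divided between them. The gene AC007192.1 (ENSG00000268173.3, chromosome 19, 18153158 to 18178117, plus strand) covers IFI30 whole, and the last 6 introns of its 25-exon transcript are the 6 introns of IFI30-201. The first shared junction, from exon 1 at chr19:18173667-18173973 to exon 2 at chr19:18175040-18175222 in IFI30-201, is the join of exons 19 and 20 in AC007192.1-201, with the same bases. It is shown here because no read that covers only this part can be told apart between the genes (GENCODE release 29 transcripts on GRCh38, 5′ to 3′, 30 bases on each side, with the capitals marking exon 2).
IFI30-201 exon 1 to exon 2: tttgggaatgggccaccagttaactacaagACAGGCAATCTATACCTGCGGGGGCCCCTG

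AC007192.1 had 184 reads in replicate 1 and 329 in replicate 2, the opposite direction to IFI30, with a log2 ratio of 0.69 (exact binomial test, adjusted p = 1.43e-05). None of its reads were in a known model, and 123 and 250 of them were in ISM suffix models of 2 to 6 exons, which hold no junction outside IFI30. With both genes counted together the reads were 721 and 722, or 504 ± 36.9 CPM, and the ratio of -0.15 no longer passed the exact binomial test (adjusted p = 0.319). IFI30 itself had 2 and 6 ISM reads, against 140 and 295 for AC007192.1. Its known share of 97.6% and 91.6%, the highest of the 10 genes, became 72.7% and 49.9% when both genes were counted together. CTSD also lies across another gene, AC068580.4, which had 1 and 2 reads.

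The most read model of CTSC was a short transcript. CTSC-203, with 4 exons and 411 coding bases, had 239 of the 570 reads in replicate 1 and 170 of the 510 in replicate 2. CTSC-201, the 7-exon transcript with 1389 coding bases, had 141 and 62. There were 1.70 and 2.74 reads of CTSC-203 for each read of CTSC-201, so the short one was ahead of it in both libraries. Both share exons 1 and 2 and part after exon 2 at chr11:88334937-88335082: exon 3 of CTSC-201 is the 167 bases at chr11:88312388-88312554, and exon 3 of CTSC-203 is the 85 bases at chr11:88328112-88328196. The 2 junctions are shown because they tell the transcripts apart (GENCODE release 29, GRCh38, minus strand, written 5′ to 3′ along the RNA, 30 coding bases on each side, with the capitals marking exon 3).
CTSC-201 exon 2 to exon 3: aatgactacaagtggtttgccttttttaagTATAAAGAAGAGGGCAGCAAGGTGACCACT
CTSC-203 exon 2 to exon 3: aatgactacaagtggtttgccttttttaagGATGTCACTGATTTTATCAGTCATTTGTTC

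The annotation lists CTSC-203 at 6125 bases, of which the last exon takes 5633. The 11 NIC and NNC models of CTSC with 4 exons were listed at 758 to 831 bases, and the known 4-exon CTSC-206 at 747. A model takes its listed length from the annotation when it is known, so the 6125 bases need not be the length of the reads.

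Reads without the 5′ exons of CTSC were more frequent in replicate 2. A single-exon ISM of CTSC of 917 bases, which is also the length of the last exon of CTSC-201, rose from 44 of 570 reads (7.72%) in replicate 1 to 108 of 510 (21.2%) in replicate 2 (Fisher's exact test, adjusted p = 1.16e-08). The share of CTSC-201 fell from 24.7% to 12.2% (Fisher's exact test, adjusted p = 2.93e-06) and that of CTSC-203 from 41.9% to 33.3% (adjusted p = 0.0259). A 4-exon ISM suffix model of 2383 bases rose from 4 to 17 reads (Fisher's exact test, adjusted p = 0.0140). Suffix reads of CTSC-201 are not counted under it, and the ratio of the 2 transcripts above leaves them out.

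**Figure D3:**
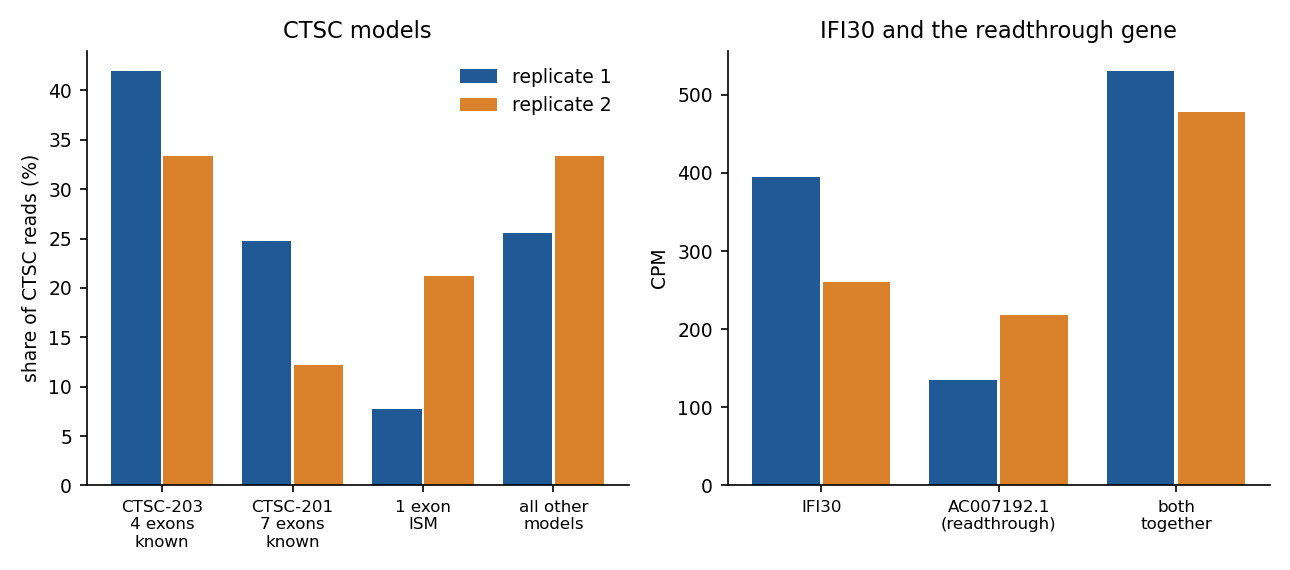
Left, share of CTSC reads in percent for CTSC-203, CTSC-201, the single-exon ISM and all other models; right, levels in CPM of IFI30, the overlapping readthrough gene AC007192.1 and both together; bars are replicate 1 (blue) and replicate 2 (orange). CTSC-203 leads CTSC-201 in both libraries, and IFI30 and AC007192.1 move in opposite directions while their sum is 530 and 478 CPM.

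CTSH had the most models of the 10 genes, 110, of which 67 were NIC or NNC. Such reads made up 21.0% of CTSH in replicate 1 and 12.9% in replicate 2, and the mean of 16.9% was above that of 80.9% of all genes tested. Of the 67 models, 49 had a single read in all and 13 had reads in both libraries. The most read of them, an 11-exon NIC model of 1420 bases that was chosen after its values were seen, had 42 and 19 reads.

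The known CTSH-201, with 12 exons and a listed length of 2190 bases, had 352 reads in replicate 1 and 175 in replicate 2. Its share fell from 48.9% to 26.5% (Fisher's exact test, adjusted p = 8.07e-16). The listed length need not be that of the reads. A 2-exon ISM suffix model rose from 25 to 76 reads (Fisher's exact test, adjusted p = 3.75e-07), and a single-exon genomic model from 23 to 55 (adjusted p = 5.59e-04). The known CTSH-204, a 3-exon transcript annotated as a retained intron and named here after its values were seen, had 22 and 35 reads. Its 2 introns are the last 2 of CTSH-201, and no 3-exon ISM suffix of CTSH-201 was in the table, so reads of CTSH-201 that stop there and reads of CTSH-204 cannot be told apart from the counts. The annotated exon 1 of CTSH-204 at chr15:78925334-78926904 runs 1464 bases upstream of exon 10 of CTSH-201 (chr15:78925334-78925440). The bases at that point are shown because a read would have to cross it to separate the transcripts (GENCODE release 29, GRCh38, minus strand, written 5′ to 3′ along the RNA, with the capitals marking the first bases of exon 10, which both share).
CTSH-201 exon 9 to exon 10: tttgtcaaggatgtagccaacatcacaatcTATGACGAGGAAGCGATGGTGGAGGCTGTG
CTSH-204 exon 1 across the start of CTSH-201 exon 10: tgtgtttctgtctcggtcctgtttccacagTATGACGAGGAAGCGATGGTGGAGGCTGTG

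Across the set, the share of reads in known models was lower in replicate 2 in all 10 genes. Of the 9 genes with at least 10 reads in each library, 7 passed Fisher's exact test with Benjamini-Hochberg adjustment over 8265 genes, all as lower in replicate 2. Over all genes 20.1% were called and 19.9% as lower in replicate 2, and the median difference was -7.51 percentage points. That background covers genes down to 10 reads in each library. With a minimum of 50 reads in each library, 7 of 8 genes of the set were called, against 45.6% of all genes. CTSZ fell from 74.4% to 44.9% (Fisher's exact test, adjusted p = 3.72e-07), CTSD from 60.2% to 35.0% (adjusted p = 0.0102), CTSC from 70.4% to 49.6% (adjusted p = 1.88e-10) and CTSH from 52.1% to 32.1% (adjusted p = 3.97e-12). LAMP1 fell from 38.7% to 20.7%, LAPTM5 from 24.2% to 14.5% and IFI30 from 97.6% to 91.6%.

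CTSS, at 24.0% and 19.0% (adjusted p = 0.966), and CTSB, at 37.0% and 29.4% (adjusted p = 0.841), did not pass Fisher's exact test. Their 46 to 63 reads a library leave wide intervals, such as 24.5 to 51.4% (Wilson 95%) for CTSB in replicate 1. LGMN, with 9 reads in replicate 2, was not tested and had 60.0% and 55.6%. The median known share was 52.1% and 32.1% over the 9 tested members and 28.4% and 14.5% over all genes tested. The median of the set was thus the higher one in both libraries.

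ISM and genomic models took larger shares in replicate 2, in the set and over all genes. The median differences over all genes tested were 5.88 and 1.85 percentage points. In the set, the ISM share was higher in replicate 2 in 8 of the 9 genes tested and lower in CTSB, at 28.3% and 19.6%. Fisher's exact test called 4 of the 9, all as higher (16.8% of all genes called, 16.3% as higher): CTSH from 23.8% to 46.7%, CTSC from 16.7% to 37.8%, CTSZ from 24.4% to 52.0% and LAPTM5 from 5.06% to 9.0%. The genomic share was likewise higher in 8 of 9 and lower in CTSS, at 56.0% and 52.4%. Here too 4 of 9 were called, all as higher (7.61% of all genes called, 7.59% as higher): LAPTM5 from 65.5% to 74.3%, LAMP1 from 32.1% to 52.7%, CTSH from 3.19% to 8.33% and IFI30 from 1.86% to 6.62%. The joint NIC and NNC share was lower in replicate 2 in 6 of 9 genes and higher in 3. It was called in 2 of 9, both as lower, against 2.84% of all genes: CTSH from 21.0% to 12.9% and LAPTM5 from 5.17% to 2.22%. Of all ISM reads of the set, 76.1% and 74.3% were suffix models.

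**Figure D4:**
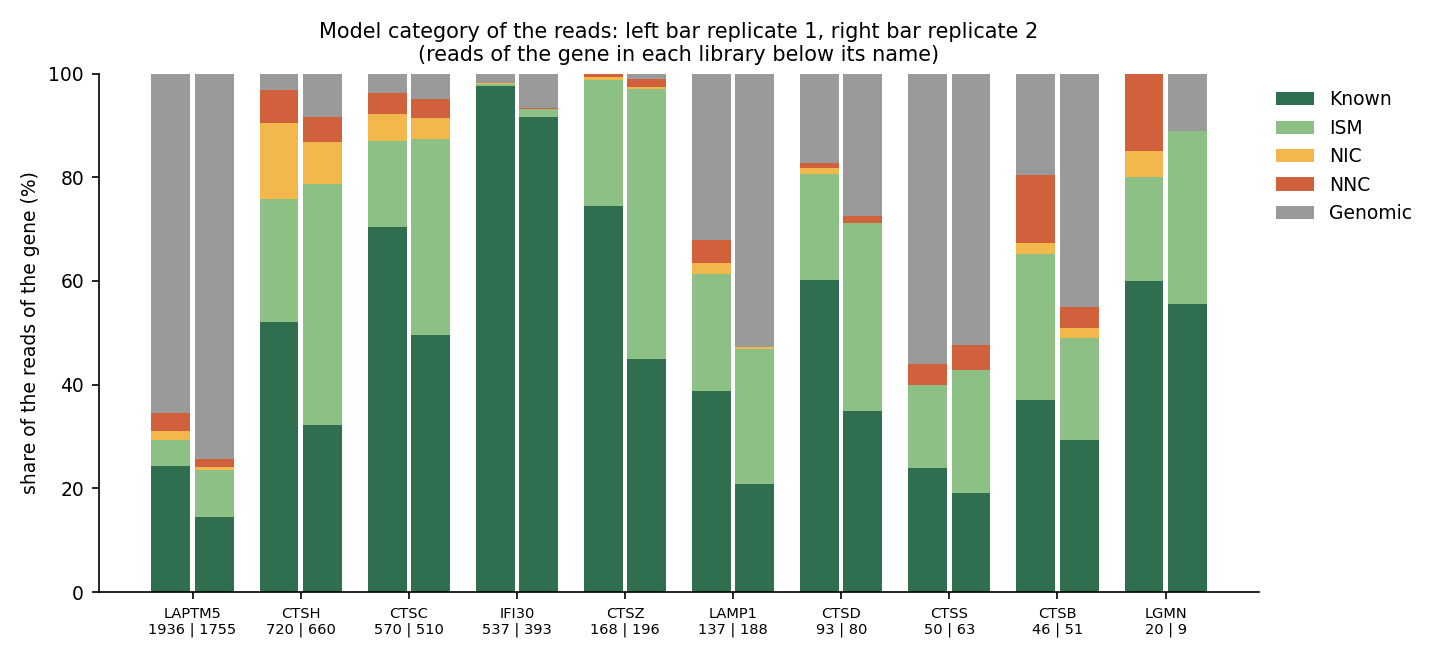
Share of the reads of each gene in percent by model category, with replicate 1 as the left and replicate 2 as the right bar and the reads of each library under the gene name. The dark green known share is lower in replicate 2 in all 10 genes, and grey genomic models fill over 50% of both LAPTM5 bars and both CTSS bars.

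The same difference was seen model by model. Of 398 models, 66 had the 10 reads needed for a test of their share, and 22 of these differed between the libraries, 12 as higher and 10 as lower in replicate 2. Over all 23786 models tested, 18.8% were called, 10.2% as higher and 8.58% as lower. This share covers models down to 10 reads. With a minimum of 20 reads, 21 of 47 models of the set were called, against 31.3% of all models. Among the coding transcripts the share fell for CTSZ-201, from 117 to 84 reads (Fisher's exact test, adjusted p = 9.11e-06), for CTSD-201, from 55 to 26 (adjusted p = 0.00699), and for LAMP1-201, from 53 to 39 (adjusted p = 0.00496). It also fell for LAPTM5-201 (Fisher's exact test, adjusted p = 4.15e-12) and for IFI30-201, from 524 to 360 reads (adjusted p = 6.82e-04).

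Among the models that took a larger share were short and unspliced ones. The single-exon ISM of CTSZ, at 575 bases the length of its last exon, went from 10 to 34 reads (Fisher's exact test, adjusted p = 0.00942), and its 2-exon suffix from 5 to 22 (adjusted p = 0.0185). A 5-exon ISM suffix of LAPTM5 went from 12 to 33 reads (Fisher's exact test, adjusted p = 0.00503). The share of the 13-base genomic model of LAPTM5 rose with adjusted p = 1.30e-05 and that of the LAMP1 genomic model with adjusted p = 0.00323 (Fisher's exact test). In IFI30 the genomic model rose from 10 to 26 reads (Fisher's exact test, adjusted p = 0.00287). No model of CTSS or CTSB passed the test: the most read were CTSS-201 and a genomic model of CTSS with 13 and 24 reads, and for CTSB the 10-exon CTSB-202 with 15 and 12 reads and a genomic model with 9 and 22. LGMN had no model in the test, and LGMN-201, with 14 exons, had 11 and 5 reads.

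Most models rested on little evidence. Of the 398, 243 (61.1%) had a single read in all and 129 (32.4%) had reads in both libraries, against 60.7% and 29.9% over all genes. LAPTM5 and CTSH had 108 and 110 models, while IFI30, on 537 and 393 reads, had 5.

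How far the reads reached was described by the share of known and ISM reads whose model had at least as many exons as the leading known model. In CTSH this share was 64.5% in replicate 1 and 33.7% in replicate 2 for 12 exons. In CTSZ it was 70.5% and 44.2% for 6 exons, in CTSD 74.7% and 49.1% for 9, and in LAMP1 63.1% and 44.3% for 9. LAPTM5 had 82.7% and 61.9% for 8 exons, and its loss was spread over the exons, with 91.7% of reads of replicate 2 still at 3 exons or more. In CTSC the share was 82.7% and 62.8% for the 4 exons of CTSC-203 but 28.4% and 13.9% for 7 exons. The share for 4 exons also counts ISM suffix models of 4 to 6 exons, which lack 5′ exons.

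The low-count genes had CTSS at 60.0% and 44.4% on 20 and 27 reads, CTSB at 56.7% and 60.0% on 30 and 25, and LGMN at 68.8% and 62.5% on 16 and 8. IFI30, counted without AC007192.1, had 99.6% and 98.4%. The share was lower in replicate 2 in 9 of 10 genes, all but CTSB, against 89.2% of the 5361 genes measured in this way. Medians were 69.6% and 54.6% for the set and 55.4% and 33.8% for all genes. No test was made of this measure.

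**Figure D5:**
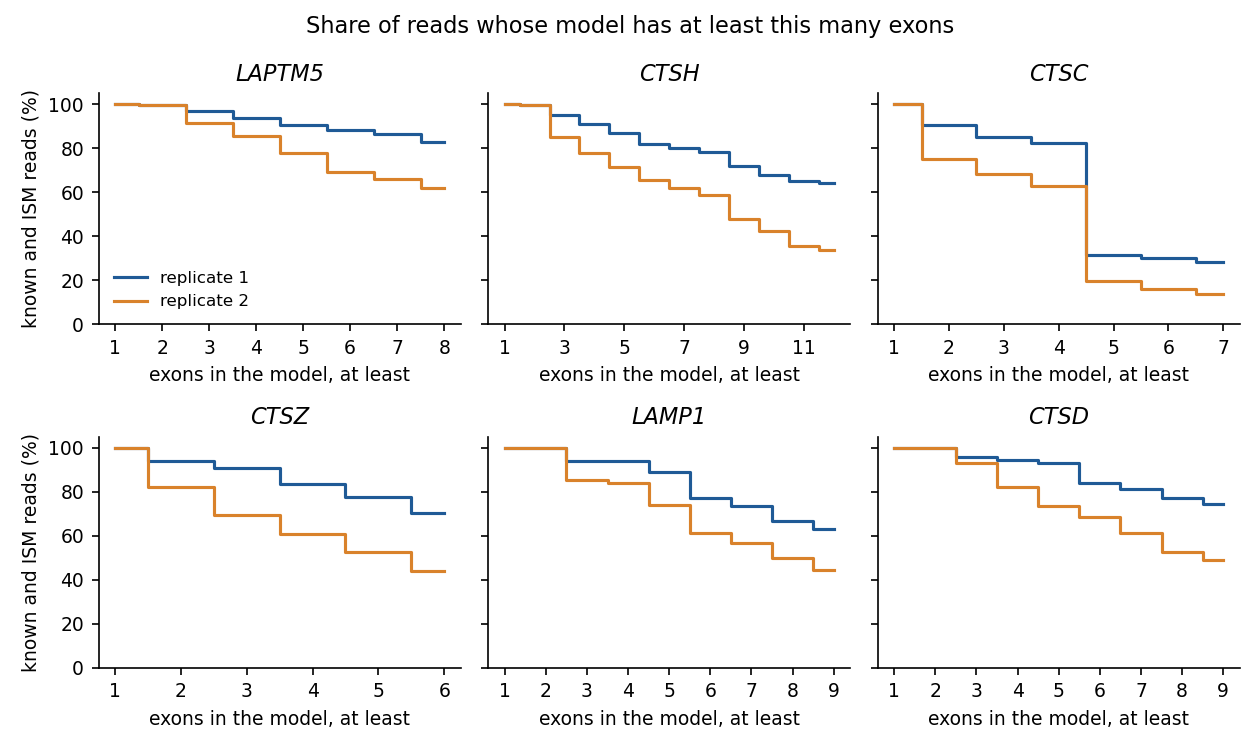
Share in percent of the known and ISM reads of a gene whose model has at least the number of exons on the horizontal axis, for the 6 genes LAPTM5, CTSH, CTSC, CTSZ, LAMP1 and CTSD in replicate 1 (blue) and replicate 2 (orange). The replicate 2 line lies below that of replicate 1 at the full exon number of every panel, and the CTSC lines drop after 4 exons, the exon number of CTSC-203.

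The lists of other lysosome genes were 7, with 93 genes, and also held protease inhibitors, sorting and biogenesis genes and class II partners. Of the 93 genes, 76 had enough reads for the exact binomial test. The test called 7, 3 as higher and 4 as lower in replicate 2. The class II partners held 4 of these 7 calls. Over all genes tested, 5.05% were called, 2.72% as higher and 2.33% as lower. This share covers genes down to 10 reads and was 9.62% with a minimum of 50 reads. Calls in the lists were not counted at that minimum. Of the 9 other cathepsins, 5 had no read (CTSE, CTSF, CTSG, CTSL and CTSV), 2 were tested and neither was called. CTSA, a carboxypeptidase that protects other lysosomal enzymes, was the highest of them at 56.5 CPM. CTSO had 4.38 CPM. CTSL, an endopeptidase of many tissues, was thus below the limit of 2.21 and 1.99 CPM that a count of 0 allows.

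Among the 8 cystatins and serpins, which are families of protease inhibitors, 3 were tested and none called. CSTB, a cytosolic inhibitor, had 153 CPM and the secreted CST3 had 119 CPM, both above CTSS, while CST6 and CST7 had no read. Of 24 hydrolases, 22 were tested and 2 were higher in replicate 2. PSAP, the precursor of the saposins, had 474 and 714 reads (log2 ratio 0.44, exact binomial test, adjusted p = 1.90e-05) and the acid phosphatase ACP5 70 and 129 (0.73, adjusted p = 0.0170). NAAA was the lowest of that list at 0.698 CPM.

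None of the 13 tested membrane proteins was called, with CD63 highest at 205 CPM and LAPTM4B lowest at 0.331 CPM. None of the 11 tested sorting and biogenesis genes was called either, with TFEB, a transcription factor of lysosomal genes, highest at 89.5 CPM and MITF without a read. All 17 proton pump genes were tested and 1, ATP6V1F, was lower in replicate 2 with 248 and 202 reads (log2 ratio -0.45, exact binomial test, adjusted p = 0.0271). The list ranged from 10.8 CPM for ATP6V1C1 to 223 CPM for ATP6V0E1.

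Of the 8 class II partners, 4 were called, against 5.05% of all genes tested and 9.62% of those with at least 50 reads, a minimum that the 8 genes all met. CD74, the invariant chain, was the highest at 7927 ± 228 CPM and differed by a log2 ratio of 0.06 (exact binomial test, adjusted p = 0.0462). HLA-DMB, a chain of the peptide exchange factor HLA-DM, had 317 and 192 reads (log2 ratio -0.87, exact binomial test, adjusted p = 3.31e-09), and its partner chain HLA-DMA had 449 and 379 (-0.40, adjusted p = 0.00325). HLA-DRA had a ratio of -0.21 (exact binomial test, adjusted p = 7.97e-08). HLA-DOB was the lowest at 39.2 CPM, close to CTSS. The median ratio over the 76 genes was -0.08, against -0.29 for the 10 genes of the set and 0.01 for all genes tested.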

How the data were processed

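GM12878 RNA was sequenced as 2 direct RNA libraries of 1 group. Per the labels' protocols, a column kit gave the RNA, library preparation began from depleted RNA, and a reverse transcription step dealt with secondary structure; the submitters' processing notes name minimap2 and hg38, and versions and read filters are not given in the sources used here. The authors deposited 1 TALON abundance table of raw read counts per transcript model, not normalized, with a column per replicate; 0 count columns lacked a sample. The exon number and bases of each model are other deposited properties and not measurements. All 29 known models of the 10 genes matched GENCODE release 29 in identifier, exon number and length, and coordinates and transcript sequences come from that release on GRCh38.

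Counts were summed per gene over all models and divided by the library total (CPM). Genes with at least 10 reads in both libraries together were compared with a two-sided exact binomial test, category shares with Fisher's exact test in genes with at least 10 reads in each library, and model shares likewise for models with at least 10 reads. P-values were adjusted by Benjamini-Hochberg over all features at a threshold of 0.05. Log2 ratios had 0.5 reads added. Such tests compare 2 libraries and assume counting error alone, as do the Wilson 95% intervals and the limit of 3 reads behind a count of 0. Scripts ran in Python 3.11.15 with scipy 1.17.1 and were tested on simulated data; edgeR 4.0.16 and DESeq2 1.42.0 gave alternative library scalings. The 10 genes and the lists were chosen with earlier results of these data known. Named are all 10 genes, for each the most read known model, the most read model and up to 3 models past the threshold, and for each list of lysosome genes the highest, the lowest and every gene past the threshold; other names are marked as chosen after their values were seen or carry a result above. Protein sequences were not analysed here.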

Additional observations from a re-analysis of the deposited data

How the results depend on the processing

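Depth limits CTSS, CTSB and LGMN, which had 9 to 63 reads a library, and 2 libraries give no test that includes the spread between samples. No paired analysis was possible because both replicates belong to 1 group. The 4 calls among the 10 genes remained 4 under TMM factors, DESeq2 size factors, no minimum, a minimum of 50 reads and without genomic models. They were 6 with known models only, where CTSD reached -1.14 (exact binomial test, adjusted p = 0.00298) and CTSZ reversed to -0.66 (adjusted p = 0.00589), and 3 with AC007192.1 added to IFI30, an alternative chosen after seeing the data. With known models only, LAMP1 reversed to -0.59 and CTSS to -0.15, neither past the test, while the median over all genes moved to -0.55 and 1681 of 5528 genes were called; without genomic models LAMP1 reversed to -0.21, the median was -0.15 and 827 of 8758 were called, against 537 of 10634. CTSB reversed to 0.0053 under DESeq2 size factors. Of 89 alternative ratios, 82 kept their direction and side of the threshold, but many of the 89 could hardly change. No minimum and a minimum of 50 reads left each ratio as it was. Adding 1 read in place of 0.5 left each adjusted p as it was. Adding AC007192.1 altered only the ratio of IFI30, and leaving out the most read genomic model of LAPTM5 altered only that of LAPTM5. The count of 82 is therefore no measure of robustness. The lists of other lysosome genes had 22 calls of 58 with known models only and 11 of 70 without genomic models (both added after seeing the data), against 7 of 76. The median level of 120 CPM was 54.3 with known models only, 94.8 without genomic models and 60.3 CPM per kilobase. The model test gave 3 of 11 with known models only (12.4% of all models called), against 22 of 66 (18.8%); the smaller number tested follows from that setting. Known-share calls were 5 of 9 without genomic models, where IFI30 and LAMP1 no longer passed and 18.3% of all genes were called, and 7 of 8 at a minimum of 50 reads, where 45.6% were. With 1 library each, the median level was 112 to 127 CPM and the known share 33.6 to 56.0%. The share with at least the exon number of the leading known model was 54.6 to 69.6%.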
